A study of Saccharomyces cerevisiae with 12 samples.

Results

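The mitochondrial genome of budding yeast encodes 8 subunits of the respiratory complexes, the ATP synthase and the mitochondrial ribosome, and the transcripts of all 8 had a probe on the array. They were COX1 (Q0045), COX2 (Q0250), COX3 (Q0275), COB (Q0105), ATP6 (Q0085), AAP1 (Q0080), OLI1 (Q0130) and VAR1 (Q0140), chosen by name among the probes whose systematic name starts with Q, and they made 8 of the 6256 genes with a probe. AAP1 is the array's name for the gene now called ATP8. The prototrophic MATa strain FY4, a derivative of the laboratory strain S288C, was grown on filters, and the cells were moved either to medium without ammonium (nitrogen starvation) or to medium without glucose (carbon starvation). Each starvation was sampled early (10, 30 and 60 min) and late (120, 240 and 480 min) with 1 array per time point, which gave 6 nitrogen and 6 carbon starvation arrays. Starved RNA was labelled red (Cy5), and RNA of exponentially growing cells in minimal medium with glucose and ammonium (the zero timepoint) was labelled green (Cy3) on every array. All values below are log2 ratios of starved over zero timepoint signal on arrays scaled so that red and green had the same total. They describe a transcript's share of the labelled RNA, which had been selected for poly(A), and not its amount per cell. More mitochondria, more RNA per mitochondrion, fewer other transcripts and a different share kept in the poly(A) selection cannot be told apart on this scale.

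As background, the 3 large COX proteins form the catalytic core of cytochrome c oxidase, COB is cytochrome b of the bc1 complex, ATP6, AAP1 and OLI1 build the membrane part of the ATP synthase, and VAR1 is a protein of the small subunit of the mitochondrial ribosome. The mitochondrial RNA polymerase copies these genes in a few long units, so that COX1, AAP1 and ATP6 share one precursor and OLI1 and VAR1 another, while the partner subunits of the same complexes are made from nuclear genes in the cytosol. Glucose represses respiration in yeast, and both sets of genes are known to be more active when it runs out. Yeast mitochondrial messages carry no poly(A) tail, and per the study's methods RNA was selected on oligo(dT) resin before labelling. What share of these transcripts the resin kept was not measured.

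The 12 arrays were not equal. Between 42.7 and 78.4% of the red spots exceeded background clearly on 4 arrays (nitrogen starvation at 10 min and carbon starvation at 10, 30 and 60 min), against 84.8 to 93.4% on the remaining 8, and the median raw red signal was 34.78 to 76.24 on the 4 against 105.5 to 427.4 on the 8. The scanner software had multiplied the red signal of the 4 arrays by a median factor of 14.3 to 52, against 3.67 to 19.9 on the others. The arrays were also correlated with the values the study lists, over the first genes of that list alone, the part at hand. The same 4 arrays did not reach a Pearson r of 0.95 with the values under their starvation and time, while 8 did. A difference between early and late carbon starvation cannot be told apart from the difference between these arrays and the rest. The arrays at 120, 240 and 480 min, matched in time between the starvations and none of them among the 4, are given on their own throughout as the late mean. The MATa label was checked on its markers, of which MFA1, MFA2, STE2 and BAR1 were well above background in the green channel on 12 of 12 arrays and MF(ALPHA)1 and MF(ALPHA)2 on 0 of 12, while STE3 was on 10 and SAG1 on 12.

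The zero timepoint level of the members, taken as the log2 green signal relative to the array's median spot, set how well each could be read. OLI1 was the brightest, at 5.16 ± 0.62 (SD, n = 8 arrays of high red detection), and its red spot reached the scanner's ceiling. COB lay near the array median at 0.05 ± 0.11, AAP1 at -0.36 ± 0.16, and ATP6, COX3 and COX1 lay at -1.93 ± 0.11, -2.05 ± 0.20 and -2.42 ± 0.05. COX2 and VAR1 were the dimmest, at -4.52 ± 0.46 and -4.54 ± 0.33. The green spot of COX2 was well above background on 0 of 12 arrays and that of VAR1 on 3 of 12, so the ratios of these 2 genes rest on the red channel over a signal close to background. The scanner software had put a substitute for the green value of COX2 on 3 arrays and of VAR1 on 5. COX1 was well above background in green on 12 arrays and in red on 10, and the other 5 members in both channels on 12 of 12. The 6 members with 2 spots gave spot to spot differences of at most 0.37 in COX1, AAP1, ATP6 and COB, but of up to 0.89 in VAR1 and 1.51 in COX2.

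**Figure D1:**
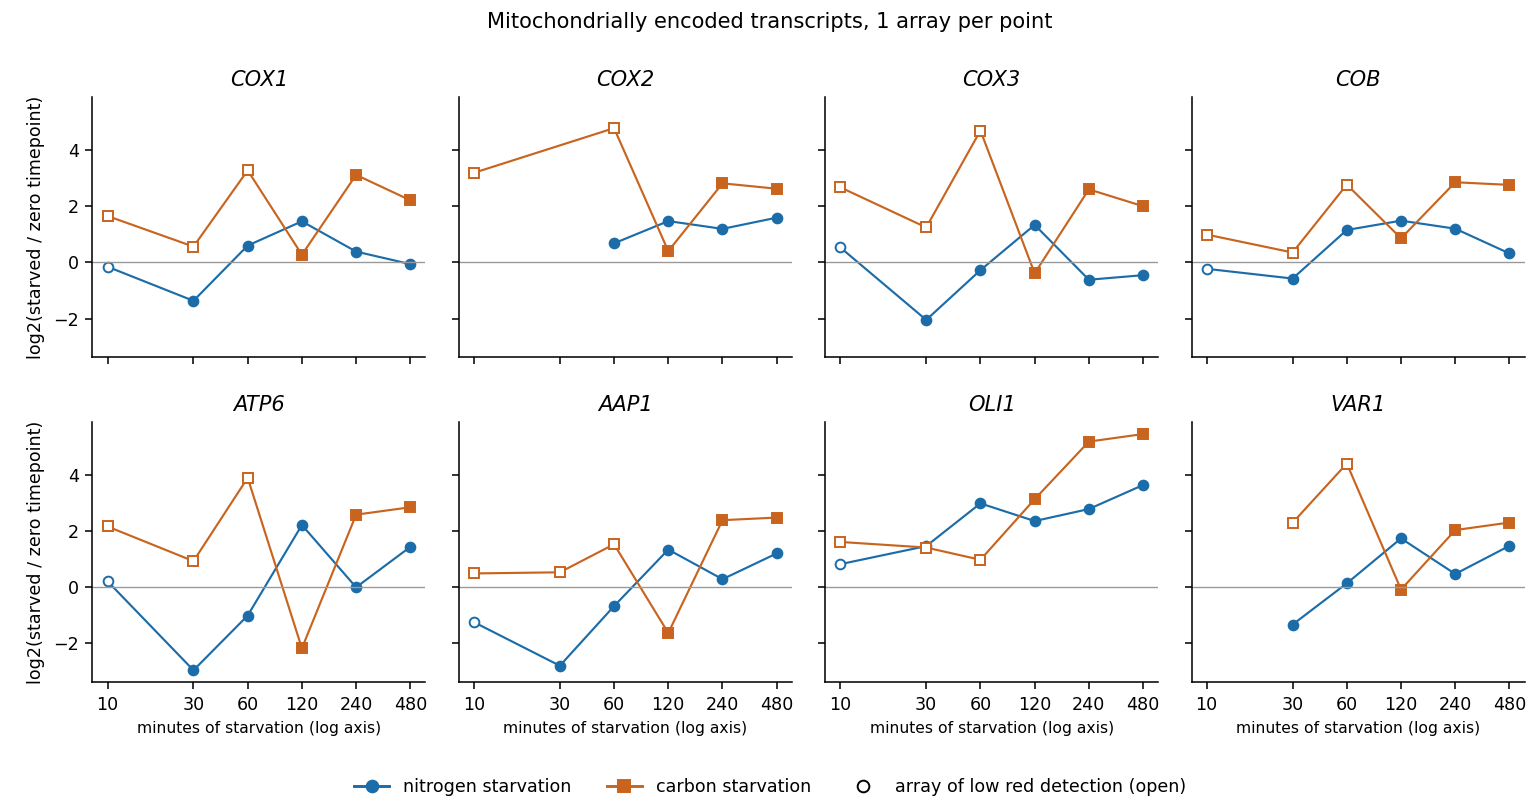
Log2 ratio of starved over zero timepoint signal (y axis) against minutes of starvation (log x axis) for each of the 8 members, with 1 array per point, nitrogen starvation as circles, carbon starvation as squares, and open symbols for the 4 arrays of low red detection. Missing points are spots well above background in neither channel, and in carbon starvation the 7 members other than OLI1 all lie lower at 120 min than at 240 min.

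Across the 6 time points, 1 of the 8 members was called higher in nitrogen starvation, where 22.1% of the 5578 genes tested were called higher, and 6 of the 8 in carbon starvation, where 16.4% were (limma, Benjamini-Hochberg adjusted p under 0.05). No member was called lower, where 19.4% of all genes were in nitrogen and 40.2% in carbon starvation. The 6 called in carbon starvation were OLI1 (2.96), COX2 (2.76), VAR1 (2.19), COX3 (2.13), COX1 (1.84) and COB (1.76), with adjusted p between 0.000672 and 0.00537, and ATP6 (1.70, adjusted p = 0.0539) and AAP1 (0.96, adjusted p = 0.16) were not called. With green mostly at background, nearly all values of COX2 and VAR1 required a red spot well above background. That favours high ratios, and the p-values of these genes do not account for it. The median change of the members was 0.32 in nitrogen starvation, beside 0.18 for all genes, and 1.99 in carbon starvation, beside -0.37 for all genes. Over the late arrays 4 of the 8 members were called higher in nitrogen starvation, beside 33.1% of 5703 genes, and 6 of the 8 in carbon starvation, beside 31.4%. Again 0 of 8 were called lower, beside 20.7% of genes in nitrogen and 36.9% in carbon starvation. The late medians were 1.11 for the members and 0.25 for all genes in nitrogen starvation, and 1.64 and -0.07 in carbon starvation. These p-values measure the spread among time points of one course against a shared zero timepoint RNA, whose own spread they leave out. The late nitrogen count dropped to 1, OLI1, when the ratios were not scaled to equal totals, when they were centred on the median or when the background was corrected by normexp.

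All 3 catalytic subunits of the oxidase rose in carbon starvation, and in nitrogen starvation 1 of the 3, COX2, was called, over the late arrays. COX1, which carries the heme and copper centre where oxygen is reduced, measured -0.15, -1.37 and 0.60 on the early arrays of nitrogen starvation and 1.46, 0.38 and -0.06 on the late ones, in the order of the times. In carbon starvation it measured 1.65, 0.56, 3.27, 0.27, 3.11 and 2.21 at the same times. It was thus above 0 on 3 of 6 nitrogen and 6 of 6 carbon starvation arrays, and the array at 120 min was the lowest of the carbon course and the highest of the nitrogen course. The late mean of COX1 was 0.59 (standard error 0.46, limma adjusted p = 0.301) in nitrogen starvation and 1.86 (standard error 0.46, limma adjusted p = 0.00411) in carbon starvation.

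COX3, the third core subunit, which binds no metal, measured 0.53, -2.04, -0.28, 1.33, -0.62 and -0.45 in nitrogen starvation. In carbon starvation it measured 2.67, 1.24, 4.69, -0.39, 2.60 and 2.00. COX3 was below the zero timepoint on 4 of 6 nitrogen arrays and on the 120 min array alone of the carbon course. Its late mean was 0.09 (standard error 0.52, limma adjusted p = 0.904) in nitrogen starvation, the smallest of the 8 members, and 1.40 (standard error 0.52, limma adjusted p = 0.0339) in carbon starvation. The late carbon call of COX3 was lost in 5 of the 14 alternatives run.

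COX2, which takes electrons from cytochrome c through its copper centre, had a value on 4 nitrogen arrays, 0.68, 1.47, 1.19 and 1.59 at 60, 120, 240 and 480 min. In carbon starvation it had values on 5 arrays, 3.18, 4.77, 0.40, 2.81 and 2.62 at 10, 60, 120, 240 and 480 min. With green at background, a value required a red spot well above background, which favours high ratios. Without that filter the missing arrays gave 1.16 and -0.54 at 10 and 30 min of nitrogen starvation and 1.94 at 30 min of carbon starvation for COX2. Since its green spot was on no array well above background, the size of its change was not measured. A lower bound computed after normexp, loess and quantile scaling of the green channel was 1.09-fold higher in nitrogen and 1.47-fold higher in carbon starvation. It holds for that scaling alone, and red was well above background on 4 of 6 nitrogen and 5 of 6 carbon arrays. The late means were 1.42 (standard error 0.40, limma adjusted p = 0.0115) in nitrogen and 1.94 (standard error 0.40, limma adjusted p = 0.00122) in carbon starvation, and under normexp and equal totals the nitrogen value turned to -0.21. The late call of COX2 held in 8 of 13 alternatives in nitrogen and in 12 of 13 in carbon starvation.

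COB rose in both starvations over the late arrays. In nitrogen starvation it measured -0.23, -0.57, 1.15, 1.48, 1.20 and 0.32, and in carbon starvation 0.99, 0.35, 2.77, 0.85, 2.85 and 2.75. All 6 carbon values lay above 0, those at 240 and 480 min within 0.1 of each other, and the nitrogen course was below 0 at 10 and 30 min. Its late mean was 1.00, a 2-fold change, in nitrogen starvation (standard error 0.38, limma adjusted p = 0.0465) and 2.15, a 4.45-fold change, in carbon starvation (standard error 0.38, limma adjusted p = 0.000448). The carbon call of COB held in all 14 alternatives of the late mean and all 22 of the mean over 6 time points, whereas the late nitrogen call held in 3 of 14.

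Of the 3 ATP synthase members, OLI1 rose in both starvations and the other 2 were not called. ATP6, the subunit along which protons pass, measured 0.21, -2.95, -1.01, 2.21, -0.004 and 1.43 in nitrogen starvation and 2.16, 0.93, 3.89, -2.17, 2.58 and 2.84 in carbon starvation. AAP1, a small stator subunit, measured -1.24, -2.79, -0.67, 1.34, 0.28 and 1.20 in nitrogen starvation and 0.49, 0.53, 1.53, -1.63, 2.38 and 2.47 in carbon starvation. Both were lowest on the same arrays, nitrogen starvation at 30 min and carbon starvation at 120 min, where ATP6 lay at the 0.218 and 13.7 percentiles of all genes. The late means of ATP6 were 1.21 (standard error 0.79) in nitrogen and 1.08 (standard error 0.79) in carbon starvation, and those of AAP1 were 0.94 (standard error 0.64) and 1.08 (standard error 0.64), with limma adjusted p-values between 0.156 and 0.242. Without the carbon array at 120 min the late carbon means were 2.71 for ATP6 (limma adjusted p = 0.000262) and 2.43 for AAP1 (limma adjusted p = 7.37e-05). That array was left out for the low values of these genes on it, which raises both means by construction.

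OLI1, which encodes the ring subunit through which the ATP synthase turns, was higher than at the zero timepoint on every array. In nitrogen starvation it measured 0.82, 1.46, 2.98, 2.35, 2.78 and 3.63, and in carbon starvation 1.61, 1.41, 0.97, 3.13, 5.17 and 5.44. All 12 values were above 0. Among the members with a value, OLI1 was the highest at each of the 6 nitrogen times and at 120, 240 and 480 min of carbon starvation. On those 3 carbon arrays it lay between the 93.7 and 98.5 percentiles of all genes. At 10 min of nitrogen starvation COX2 and VAR1 had no value, and without the filter they measured 1.16 and 1.295, above OLI1. Its mean change over 6 time points was 2.34 (standard error 0.57, limma adjusted p = 0.00551) in nitrogen and 2.96 (standard error 0.57, limma adjusted p = 7e-04) in carbon starvation, and both calls held in all 22 alternatives. It was the member called in nitrogen starvation over all 6 time points, and the other 7 had changes between -0.31 and 1.23 there.

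The size of the OLI1 change was not measured in full at later times, because its red spot was saturated on 6 of the 12 arrays and its green spot on none. The first and second nitrogen arrays read a raw red signal of 9315 and 63236, the last 60373, and the 3 between them 64368 to 64369, the ceiling. The early carbon arrays read 3235, 3251 and 1098, and all 3 late ones sat at the ceiling. The raw green signal on the late arrays was 6025, 4999 and 5817 in nitrogen and 4835, 4441 and 3355 in carbon starvation. The steps of OLI1 among the saturated arrays therefore came from the green channel and from the dye normalization, not from the starved RNA, and no order among them can be read. Over the late nitrogen arrays, 2 of 3 saturated, the late mean was 2.92, a 7.56-fold change (standard error 0.41, limma adjusted p = 0.000155). Over the late carbon arrays, 3 of 3 saturated, it was 4.58, a 23.9-fold change (standard error 0.41, limma adjusted p = 2.98e-06). Neither fold is a bound, since both move with the scaling, and the carbon one was 12.2 under normexp and equal totals, 34.7 under normexp and loess and 39.6 without the array at 120 min. No fold is given for OLI1 between the starvations.

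**Figure D2:**
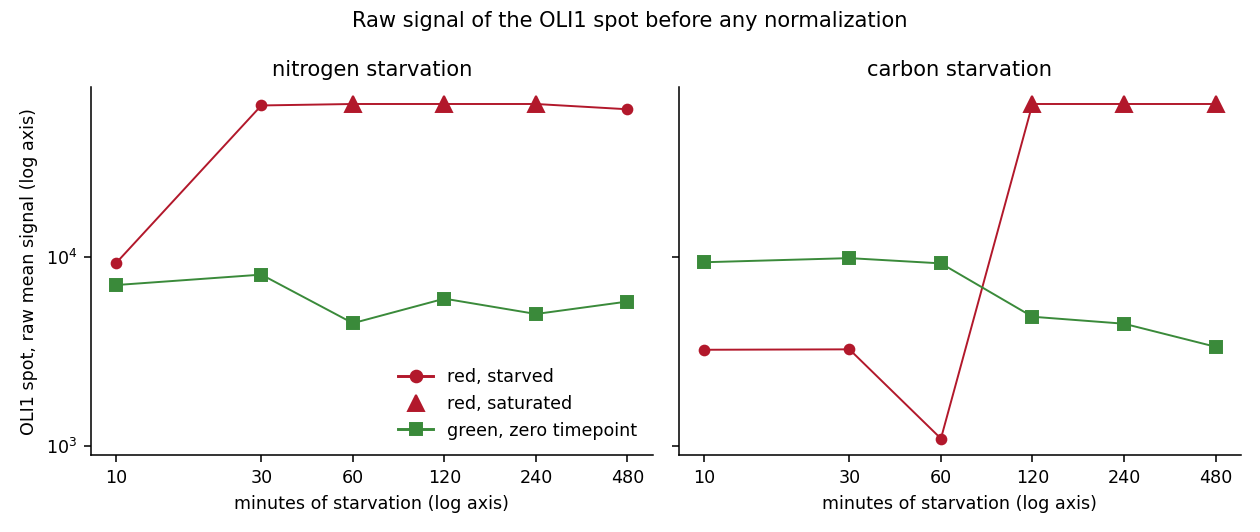
Raw mean signal of the OLI1 spot (log y axis) against minutes of starvation (log x axis) in nitrogen starvation (left) and carbon starvation (right), red channel for starved RNA and green channel for the zero timepoint, with triangles for saturated red spots. The red signal sat at the ceiling of about 64369 on 3 nitrogen and 3 carbon starvation arrays, and on the 3 early carbon arrays it was below the green signal before normalization.

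On those 3 early carbon arrays the log2 ratio of OLI1 was negative before normalization and positive after it. Red was low there over all spots, with a median raw signal of 40.44, 48.37 and 34.78 against 147.2, 185.4 and 140.4 in green. Normalization raised red over green by a median factor of 8.2, 7.4 and 12.1. Before normalization, the background-subtracted log2 ratio of the OLI1 spot was 0.39 on the nitrogen array at 10 min and 2.98 to 3.86 on the later ones. On the carbon arrays it was -1.54, -1.61 and -3.11 early and 3.74, 3.87 and 4.28 late. The slope of OLI1 in carbon starvation, 0.83 per doubling of time (standard error 0.17, limma adjusted p = 0.0112), which made it the 1 member of 8 called for a slope, beside 10.5% of all genes called for a rising and 9.45% for a falling one, spans these 2 kinds of array. Without the 4 arrays of low red detection it was 1.16 (standard error 0.37), larger but not called (limma adjusted p = 0.802), with 3 carbon arrays left. In nitrogen starvation the slope was 0.46 (standard error 0.17, limma adjusted p = 0.147), where 1.25% of all genes were called for a rising and 0.52% for a falling slope and 0 of 8 members for either. At an unadjusted p under 0.05, 2 of 8 members passed there, OLI1 and AAP1, beside 1232 of 5578 genes.

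VAR1, the one ribosomal protein that the mitochondrial genome of yeast encodes, had values on 5 arrays of each course. They were -1.33, 0.14, 1.73, 0.47 and 1.47 at 30, 60, 120, 240 and 480 min of nitrogen starvation and 2.29, 4.40, -0.08, 2.03 and 2.30 at the same times of carbon starvation. Of these 10 values, 2 were below 0, and the carbon course was lowest at 120 min, like that of the oxidase genes. As for COX2, most values required a red spot well above background, which favours high ratios. Without that filter VAR1 measured 1.295 at 10 min of nitrogen and 2.915 at 10 min of carbon starvation. The late mean was 1.23 (standard error 0.42, limma adjusted p = 0.0302) in nitrogen and 1.42 (standard error 0.42, limma adjusted p = 0.0116) in carbon starvation. The nitrogen call held in 6 of 13 alternatives and the carbon call in 9 of 13. Both calls of this dim probe were lost under normexp and equal totals, where the late means were -0.37 and 0.04.

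**Figure D3:**
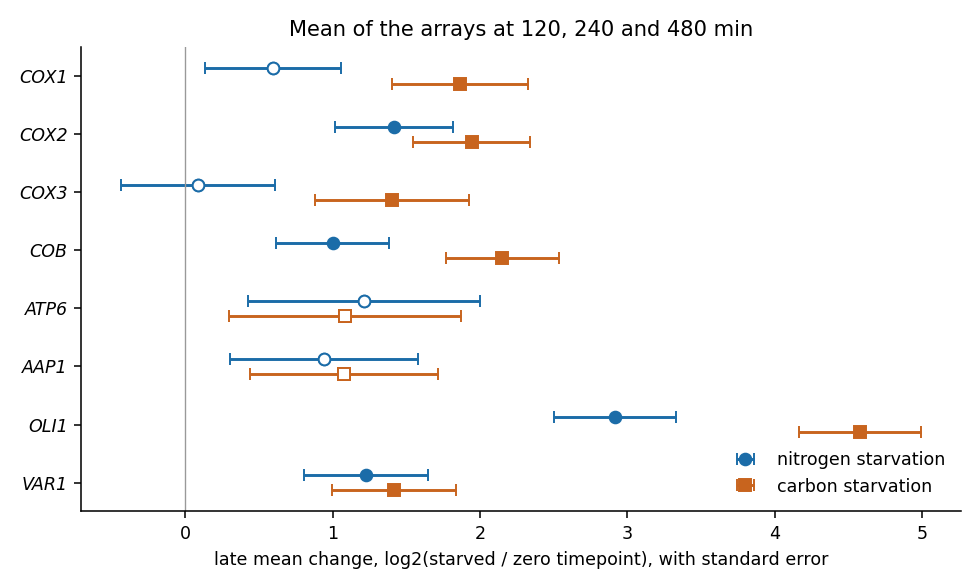
Late mean change of each member (x axis, log2 of starved over zero timepoint) as the mean of the arrays at 120, 240 and 480 min, with the limma standard error, nitrogen starvation as circles above carbon starvation as squares, and filled symbols where the adjusted p was under 0.05. OLI1 lies furthest to the right in both starvations, at 2.92 and 4.58, values that rest on saturated red spots on 2 of 3 nitrogen and 3 of 3 carbon arrays.

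The starvations were compared to ask whether the mitochondrial transcripts respond more to the loss of glucose than to the loss of ammonium. Over 6 time points the 7 members other than OLI1 had a lower value in nitrogen than in carbon starvation, with differences of -1.20 in COB to -2.39 in COX3. The difference of OLI1 rests on saturated spots and turned its sign under normexp and equal totals. Of the 8 members, 0 were called in the difference, where 10% of all genes were called higher and 0.502% lower in nitrogen. The median difference was -1.61 for the members and 0.39 for all genes. The 8 arrays of high red detection were 3 of the 6 carbon and 5 of the 6 nitrogen arrays. The carbon values of COX1, COX2, COX3, ATP6 and VAR1 were highest at 60 min, on an array of low red detection. The differences over 6 time points therefore cannot be told apart from a difference between arrays of low and high red detection. At an unadjusted p under 0.05, where 1464 of 5578 genes passed, 3 of 8 members did, COX3 (-2.39, 95% interval -3.98 to -0.80, limma adjusted p = 0.0553), COX1 (-1.70, interval -2.96 to -0.44, limma adjusted p = 0.0787) and COB (-1.20, interval -2.36 to -0.04, limma adjusted p = 0.175).

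Over the matched late arrays 6 of the 7 members other than OLI1 were lower in nitrogen than in carbon starvation and ATP6 differed by 0.13 (95% interval -2.33 to 2.59), with 0 of 8 called beside 16.1% of all genes called higher and 5.86% lower. The median was -0.84 for the members and 0.23 for all genes, and 1 member passed an unadjusted p under 0.05, as did 1985 of 5703 genes. It was OLI1, whose red spot was at the ceiling on 2 of 3 nitrogen and 3 of 3 carbon arrays. The count turned on 1 array, picked out here for the low values of the members on it. Without the carbon array at 120 min, 6 of 8 members were called lower in nitrogen, beside 4.72% of all genes called lower and 14.8% higher in that fit. They were COX3 (-2.21), COX1 (-2.06), COB (-1.80), AAP1 (-1.49) and COX2 (-1.30), with limma adjusted p between 0.0152 and 0.0351, beside OLI1, and ATP6 (-1.50, limma adjusted p = 0.0909) and VAR1 (-0.94, limma adjusted p = 0.175) were not. The carbon mean then rested on 2 arrays, and the times were no longer matched. Leaving out an array for its low values raises the carbon mean by construction, so these calls are a description and no test. No member was called for a difference in slope (0 of 8 called, 0 of 8 at an unadjusted p under 0.05, and 0 of all 5578 genes called, with 528 at an unadjusted p under 0.05). The intervals of the slope difference were wide, from -0.69 to 0.65 per doubling of time for COX1 and from -0.28 to 1.94 for VAR1.

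**Figure D4:**
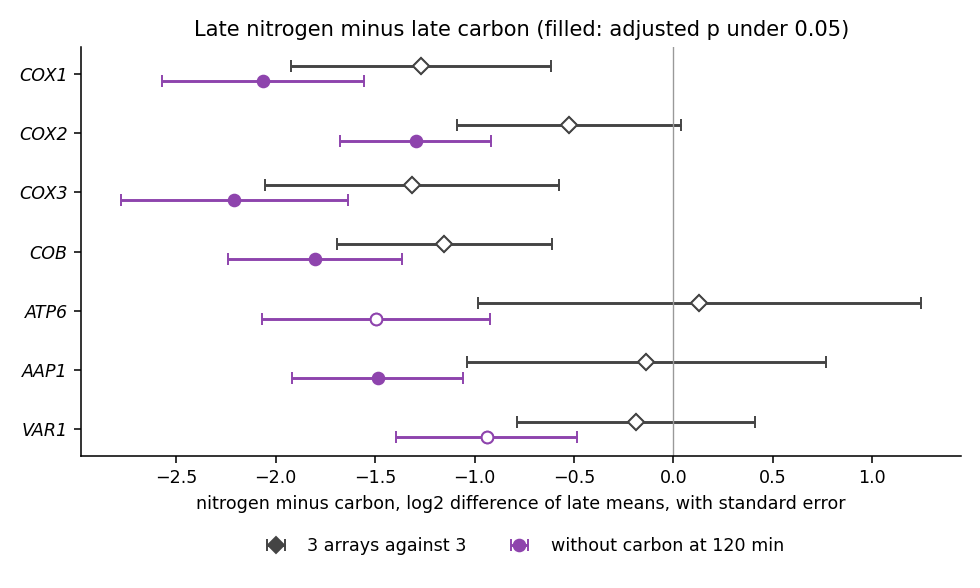
Log2 difference of late means, nitrogen minus carbon starvation (x axis), with its limma standard error, for the 7 members other than OLI1, from 3 arrays against 3 (diamonds, upper) and without the carbon array at 120 min (circles, lower), filled where the adjusted p was under 0.05. Without that array all 7 differences lie below 0, between -0.94 and -2.21, and 5 of the 7 were called. The array was left out for the low values of these genes on it, so these calls are a description and no test.

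On the carbon array at 120 min the 7 members other than OLI1 lay between -2.17 and 0.85, with a median of -0.08 beside 0.19 for all genes. Between 120 and 240 min all 8 members were higher on the later array, 7 of them by more than 2, where 0.981% of the 5605 genes with values on both arrays had such a step. The steps were 4.75 in ATP6, the largest of the 5605 genes, 4.01 in AAP1, 2.99 in COX3, 2.84 in COX1, 2.41 in COX2, 2.11 in VAR1 and 1.99 in COB. That of OLI1, 2.05, lay between 2 saturated spots. Of the 55 genes with such a step, 12 were mitochondrial-genome probes, and the median step of all genes was -0.19. No test can be made on single arrays. Between 240 and 480 min the members other than OLI1 differed by -0.90 to 0.27.

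A second low array stood in nitrogen starvation at 30 min, where 6 of the 7 members with a value were below the zero timepoint and OLI1 was above it. The members other than OLI1 lay between -2.95 and -0.57 there, with a median of -1.70 beside 0.07 for all genes. From 30 to 60 min the 6 of them with both values were higher by 1.47 to 2.12, 1 of them by more than 2 beside 4.04% of all genes, and from 60 to 120 min all 7 by 0.33 to 3.22, so that at 120 min every one of the 8 members was above 1.3. The nitrogen array at 240 min was again lower in all 7, with steps of -0.28 to -2.22 beside a median of -0.24 for all genes, which COX2 (-0.28) and COB (-0.29) did not exceed by much. Steps of single members between neighbouring arrays thus ran from -6.06 (ATP6 between 60 and 120 min of carbon starvation, the first of them an array of low red detection) to 4.75. With 1 array per time point a change in the cells, an effect of the poly(A) selection and an effect of the array cannot be told apart. Over the 8 arrays of high red detection, the green levels of COX1, COX3, COB, ATP6 and AAP1 had an SD of 0.05 to 0.20.

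Genes of one precursor were compared array by array. COX1 exceeded AAP1 on 10 of 12 arrays, with a median difference of 0.91 on the log2 ratio scale (range -1.26 to 1.90), and AAP1 exceeded ATP6 on 4 of 12 (median -0.30, range -2.36 to 0.55). OLI1 had the higher ratio than VAR1 on 8 of the 10 arrays with both values, and the 2 exceptions were the carbon arrays at 30 and 60 min, both of low red detection. By how much was not measured, with the red spot of OLI1 saturated on 6 arrays and the green spot of VAR1 well above background on 3. Over all 12 arrays, which share the zero timepoint RNA, the Pearson r of each member with the mean of the others was 0.77 to 0.93 for COX1, COX3, COB, ATP6 and AAP1 and 0.32 for OLI1. Over the 8 arrays of high red detection it was 0.90 to 0.95 for the 5 and 0.82 for OLI1. The red spot of OLI1 was saturated on 6 of these 8 arrays, so its r does not show how closely its message followed the others. The mean set against each of the 5 includes OLI1.

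Beside the 8 members, 15 further probes belong to the mitochondrial genome, most of them reading frames inside introns of COX1 (the AI probes) and COB (the BI probes), whose proteins help splice or spread those introns. Of the 8 with enough values, 1 was called higher over 6 time points in nitrogen starvation and 5, Q0017 among them, in carbon starvation, and 0 lower. Of all genes, 22.1% were called higher and 19.4% lower in nitrogen, and 16.4% higher and 40.2% lower in carbon starvation. The highest of the intron probes tested was AI1, with mean changes of 1.15 (standard error 0.36, limma adjusted p = 0.0212) in nitrogen and 2.04 (standard error 0.36, limma adjusted p = 0.000401) in carbon starvation. AI5_ALPHA was the lowest, at -0.66 in nitrogen and 0.38 in carbon starvation, neither called. Over the late arrays 4 of 12 were called higher in nitrogen, near the 33.1% of all genes, and 7 of 12 in carbon starvation, beside 31.4%. The 1 called in the late difference, lower in nitrogen, was Q0297 (-1.61, standard error 0.41, limma adjusted p = 0.0206), where 5.86% of all genes were called lower. Q0017, of no annotated role here, measured 1.75 at 10 min of nitrogen starvation and 3.86, 3.03 and 6.32 at 10, 30 and 60 min of carbon starvation, all arrays of low red detection, and between -0.48 and 0.37 on the 8 others, and Q0010 was well above background in red on those 4 arrays alone.

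The genes whose courses were most like the mean of the 6 members with values on all 12 arrays were named as a description among 5336 candidates, whose median Pearson r with it was -0.25. AI4 (0.97), AI5_BETA (0.95) and AI2 (0.93), all from COX1 introns, were followed by the nuclear genes OAR1 (0.93), a reductase of mitochondrial fatty acid synthesis, and PTK1 (0.87), a protein kinase gene. Over the 8 arrays of high red detection the r of OAR1 was 0.97 and that of PTK1 0.87. All these values share the arrays, the zero timepoint RNA and the scaling, and the mean includes OLI1 with its saturated spots.

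**Figure D5:**
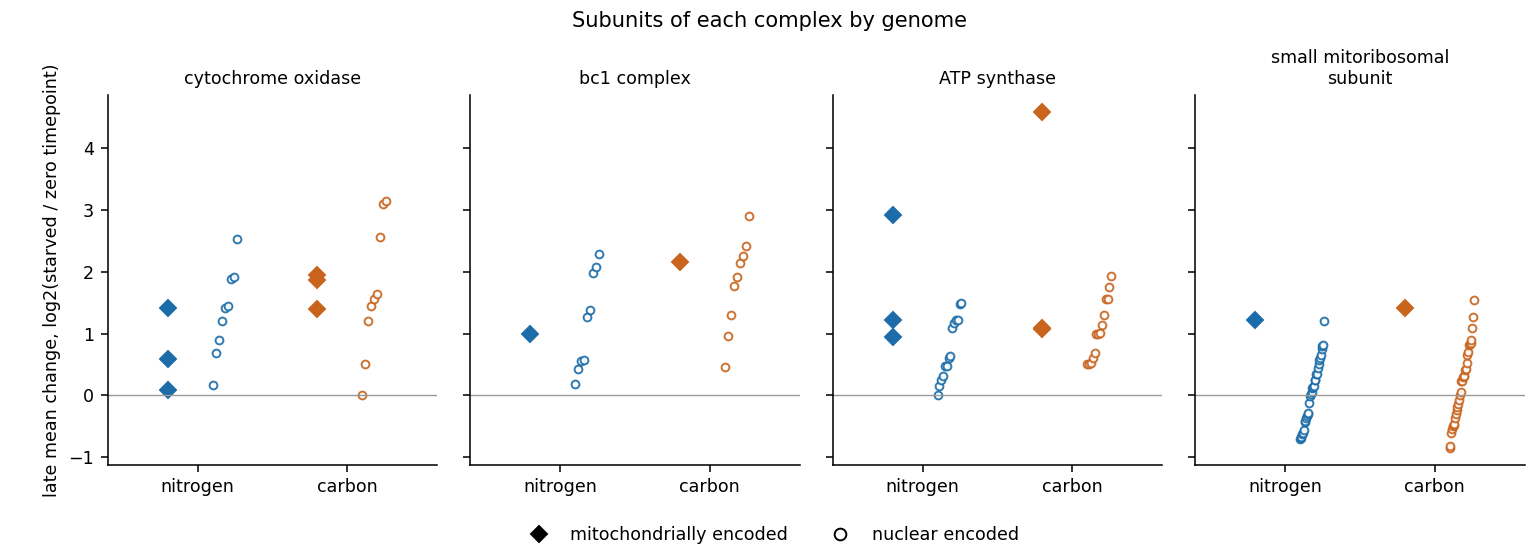
Late mean change (y axis, log2 of starved over zero timepoint) of the mitochondrially encoded subunits (diamonds, left of each pair) and the nuclear-encoded subunits (open circles) of 4 complexes, in nitrogen starvation and in carbon starvation, 1 symbol per gene. OLI1 lies above the 14 nuclear ATP synthase genes in both starvations, COX3 (0.09) just below the lowest nuclear oxidase gene (0.17) in nitrogen starvation, and VAR1 at the top of the small ribosomal subunit in nitrogen starvation.

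Most nuclear subunits of the oxidase rose in both starvations. Of all genes, 33.1% were called higher over the late nitrogen and 31.4% over the late carbon arrays. Of the 9 nuclear oxidase subunits on the array, 7 were called higher over the late arrays in nitrogen and 7 in carbon starvation, with medians of 1.41 and 1.56, and those of the 3 mitochondrial ones lay between 0.09 and 1.42 in nitrogen and between 1.40 and 1.94 in carbon starvation. COX7 and COX12, small peripheral subunits, had the largest mean carbon changes over 6 time points, 2.64 and 2.12. COX4, a structural subunit, was lowest, at -0.18 in nitrogen and 0.01 in carbon starvation. The 2 forms of subunit 5, of which COX5B is known as the hypoxic form, had different values. COX5B had a late mean of 2.53 in nitrogen and 0 in carbon starvation, a called difference of 2.53 (standard error 0.45, limma adjusted p = 0.0031), while COX5A was called higher in carbon starvation alone (0.68, limma adjusted p = 0.0654, in nitrogen and 1.20, limma adjusted p = 0.00304, in carbon starvation). COX12 and COX13 were called lower in nitrogen than in carbon starvation over the late arrays, with differences of -1.26 and -1.11 (limma adjusted p = 0.0448 and 0.0491).

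Of the 9 nuclear bc1 subunits, 5 were called higher over the late arrays in nitrogen and 8 in carbon starvation, with medians of 1.27 and 1.92 beside 1.00 and 2.15 for COB. QCR8, a small subunit next to cytochrome b, had the largest mean change over 6 time points in both, 1.98 in nitrogen and 2.69 in carbon starvation, and QCR2, a core subunit, the smallest, -0.26 and 0.22. Of the 14 nuclear ATP synthase subunits, 6 were called higher in nitrogen and 9 in carbon starvation over the late arrays, with medians of 0.61 and 1.00. Beside both lists, 33.1% of all genes were called higher late in nitrogen and 31.4% in carbon starvation. ATP18 and ATP15 led over 6 time points, at 1.74 and 1.63 in nitrogen and 1.91 and 1.81 in carbon starvation, and ATP3, of the rotor stalk, was near the bottom at -0.22 and 0.09. None of the bc1 or ATP synthase genes was called in the difference between the starvations, over 6 time points or over the late arrays.

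Counts of the genes that make and use these messages are set beside the 33.1% of all genes called higher and 20.7% lower over the late nitrogen arrays and the 31.4% higher and 36.9% lower over the late carbon arrays. Of the 32 nuclear proteins of the small mitochondrial ribosomal subunit, the partners of VAR1, 3 were called higher and 1 lower over the late arrays in nitrogen starvation and 9 higher and 3 lower in carbon starvation, with medians of 0.09 and 0.24. RSM18 (1.36 and 1.24 over 6 time points) and MRP4 (-0.78 and -1.02) had the highest and the lowest mean change in nitrogen and in carbon starvation. Of 21 tested genes for mitochondrial transcription, RNA processing and splicing, 8 were higher and 2 lower late in nitrogen starvation and 7 higher and 3 lower in carbon starvation. The mitochondrial RNA polymerase RPO41 was at 0.82 (standard error 0.23, limma adjusted p = 0.0101) over the late nitrogen and 1.65 (standard error 0.23, limma adjusted p = 6.67e-05) over the late carbon arrays, and its difference was not called (limma adjusted p = 0.0905). NCA2, needed for the normal processing of the AAP1 and ATP6 message, was at 1.53 in nitrogen and 2.44 in carbon starvation (limma adjusted p = 0.000585 and 1.09e-05), and the splicing helicase MSS116 was lower, at -1.22 and -1.65 (limma adjusted p = 0.00167 and 0.000128).

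Among 14 activators of the translation of single mitochondrial messages, 3 were higher and 0 lower late in nitrogen starvation and 4 higher and 1 lower in carbon starvation. For these counts and those below, the shares of all genes were 33.1% higher and 20.7% lower in nitrogen and 31.4% higher and 36.9% lower in carbon starvation. CBP6, for cytochrome b, was highest at 1.16 and 1.96, and PET122, for COX3, was at -0.77 (limma adjusted p = 0.117) in nitrogen and -2.20 (limma adjusted p = 0.000418) in carbon starvation. Of 21 oxidase assembly factors, 8 were higher and 0 lower late in nitrogen and 11 higher and 1 lower in carbon starvation, with COX14, a factor of COX1 translation and assembly, at 1.73 and 2.62. COX20, a chaperone of COX2, was called lower in nitrogen than in carbon starvation (-1.01, limma adjusted p = 0.0445). Of 8 genes that replicate, pack or repair mitochondrial DNA, 2 were higher and 1 lower late in nitrogen and 2 higher and 2 lower in carbon starvation. MSH1, a repair protein, was lower in both, at -1.01 and -0.97 (limma adjusted p = 0.00256 and 0.00224), and MGM101, a recombination protein, was called higher in nitrogen than in carbon starvation (-0.09 and -1.28, difference 1.19, limma adjusted p = 0.0227). The mitochondrial DNA polymerase MIP1 was at 0.82 and 0.61 (limma adjusted p = 0.0145 and 0.0431).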

How the data were processed

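The deposited files were the scanner output of 12 Agilent 2-colour arrays, with processed red and green intensity values that the scanner software had background-subtracted and dye-normalized. The deposited scanner files also gave each spot's log10 ratio of red over green, made by the scanner software. The deposited series table held log2 ratios (Cy5 over Cy3) that equalled those of the scanner files within 5e-04. Per the study's methods, poly(A)+ RNA was labelled as cRNA. Probe sequences were not used here.

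From these, log2(red / green) was scaled to equal totals over 10263 non-control spots, outlier spots were dropped, as were those that neither channel measured well above background, and the spots of a gene averaged. Genes with values on at least 4 of 6 arrays of each starvation (2 of 3 for late means) were fitted in limma 3.58.1 (R 4.3.3), with 1 coefficient per starvation or a slope on log2 time, and p-values adjusted by Benjamini-Hochberg over all genes at a threshold of 0.05. The fits were tested on simulated data with changes in carbon starvation. The mean over 6 time points called 44% of genes with a simulated log2 change of 1 and 87% with 2. The late mean called 0% and 13%, so a late change that was not called may still be real. Of unchanged genes, 0.0558% and 0.0545% were called. No fit imputes a value. Bounds used normexp (offset 50). Python 3.11.15 with matplotlib 3.10.9 drew the figures. Arrays carry no read depth, and their number limits the precision.

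The members and gene lists were chosen with earlier results of these data known. Named genes are the 8 members, the genes of each list called in the difference between the starvations or with the largest and smallest mean changes (at most 2 in each direction and starvation), and the 5 genes most like the members. RPO41 and Q0010 fall outside that rule and were chosen after their values were seen.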

Additional observations from a re-analysis of the deposited data

How the results depend on the processing

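The number of members called was recomputed under each alternative, and most counts stayed within 1.5 times those given above. Over 6 time points, carbon starvation gave 3 among genes bright in both channels on all 12 arrays, a set that holds 5 of the 8 members. Nitrogen starvation gave 2 without the 4 arrays of low red detection. The difference between the starvations gave 3 under normexp and equal totals, 1 without the 4 arrays, 1 with a trended robust variance and 2, COX3 and COX1, with the time point as a block (limma adjusted p = 0.0493 and 0.0459). Over the late arrays, carbon starvation gave 2 under normexp and equal totals and 3 in the bright set. Late nitrogen starvation gave 1 under normexp and loess, normexp and equal totals, ratios with no scaling, the series table, centring on the median and the bright set. The late difference gave 1, OLI1, with the time point as a block (limma adjusted p = 0.00976). The carbon slope gave 0 when a change of at least 1 was required, 2 under normexp and loess and 0 without the 4 arrays. The directions of VAR1 (-0.371) and COX2 (-0.215) in late nitrogen starvation reversed under normexp and equal totals. The causes were not tested.

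With each array left out in turn, members called ranged from 6 to 8 in carbon and 1 to 2 in nitrogen starvation, from 0 to 3 in their difference, from 3 to 8 in late carbon, 2 to 6 in late nitrogen and 0 to 6 in the late difference. The carbon slope ranged from 0, without the array at 480 min, to 1, and the nitrogen slope and the slope difference stayed at 0. The upper ends of all but the slope counts came without the carbon array at 120 min, and that of 2 in nitrogen starvation also without the carbon array at 60 min. Late carbon gave 3 without the array at 240 min and 4 without that at 480 min, and late nitrogen 2 without the nitrogen array at 120 min. The late difference gave 1 without the nitrogen array at 120 or at 480 min. Arrays of the same time point deviated together (r over 0.1 across genes) in 5 of 6 pairs, with r of 0.441 to 0.651. The pair at 60 min did not (r = -0.403), and 4 of 6 arrays correlated best with their own time. The fits in the results assume no pairing and so leave this shared deviation out. The counts with the time point as a block are those given in the paragraph before. Slides as a random block changed no count.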
